A study of Mus musculus with 9 samples.

Results

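Of 17487 genes listed in the 9 deposited libraries, 9 were followed here because they mark the GABAergic lineage of the ventral forebrain, namely Dlx1, Dlx2, Dlx5, Dlx6os1, Gad1, Gad2, Lhx6, Maf and Erbb4. They were chosen by name, with earlier results of these data known, and all 9 were listed in every library. The libraries come from neocortices microdissected at E18.5 and profiled as single cells with the Chromium 3′ v2 chemistry, 1 library for each embryo, 5 of them labelled wildtype (WT) and 4 labelled Tcf4 knockout (KO). All embryos stem from crosses of Tcf4 haploinsufficient mice of the strain Tcf4ex4WT/lacZ, and WT and KO were littermates. KO embryos carried, on both alleles, a lacZ/neomycin cassette ahead of exon 4 of Tcf4, in every cell of the body, which removes the long isoform TCF4B and leaves the short isoform TCF4A. The comparison of the study is WT replicates 2, 3 and 4 (WT2, WT3 and WT4) against KO replicates 4 and 5 (KO4 and KO5). The question put to the data was in which cells the 9 genes were detected, and whether their levels differed between the genotypes within these cells.

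Dlx1, Dlx2 and Dlx5 encode homeodomain transcription factors that are turned on in dividing progenitors of the ganglionic eminences, the ventral structures that give rise to cortical interneurons and striatal projection neurons. Dlx6os1 is a long noncoding RNA transcribed next to Dlx5, antisense to Dlx6. Gad1 and Gad2 encode both glutamate decarboxylases, the enzymes that make GABA. Lhx6 is the LIM homeodomain factor of interneurons of the medial ganglionic eminence (MGE), Maf is a bZIP factor of the same lineage, and Erbb4 is the neuregulin receptor of migrating interneurons. Cortical interneurons reach the neocortex by tangential migration, whereas glutamatergic neurons are born within the cortex. TCF4 is a basic helix-loop-helix factor, a class that binds E-boxes, the motif CANNTG.

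In the GENCODE vM21 annotation of GRCm38, Dlx1 (ENSMUSG00000041911, chr2:71528113-71533981, plus strand) and Dlx2 (ENSMUSG00000023391, chr2:71543408-71546754, minus strand) face each other across 9426 bases. Dlx5 (ENSMUSG00000029755, chr6:6877805-6882085, minus strand) lies 6212 bases from Dlx6os1 (ENSMUSG00000090063, chr6:6820189-6871592, minus strand), a name that 2 records of the annotation carry, of which the longer is given. Gad1 (ENSMUSG00000070880, chr2:70553072-70602014), Gad2 (ENSMUSG00000026787, chr2:22622205-22693874) and Lhx6 (ENSMUSG00000026890, chr2:36081953-36105408) share chromosome 2 with the Dlx1 and Dlx2 pair. Maf (ENSMUSG00000055435) lies at chr8:115682942-115707794 and Erbb4 (ENSMUSG00000062209) at chr1:68032186-69108059. The authors' counting assigned reads to whole genes from the 3′ end, so isoforms are not told apart, and levels are UMIs of a gene per 10000 UMIs of a cell without division by length.

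Because TCF4 belongs to a class that reads E-boxes, the 150 bases ahead of the RefSeq start were searched for CANNTG. This motif reads the same on either strand. The search covered the 10 windows that RefSeq (GRCm38.p6) gives for 7 of the 9 genes. Dlx5 and Maf had no entry. Of all 32851 such windows, 47.7% hold at least 1 CANNTG, so a match describes the window and not a site in use. The 3 windows below overlap no annotated exon, as do the other 2 Lhx6 windows and 1 of the 2 of Dlx6os1. The printed windows are examples, and whether E-boxes go with the fall of a gene was not tested. The first 2 printed stand for a gene that fell in eminence-gated cells (Dlx2) and a gene that fell in interneuron-gated cells (Lhx6). The last stands for a gene that limma called in none of the 4 comparisons of KO with WT (Erbb4). Capitals mark each E-box, and all are written 5′ to 3′ on the minus strand, on which the genes lie. The Dlx2 window is chr2:71546755-71546904, the Lhx6 window chr2:36105409-36105558 and the Erbb4 window chr1:69108060-69108209.
Dlx2: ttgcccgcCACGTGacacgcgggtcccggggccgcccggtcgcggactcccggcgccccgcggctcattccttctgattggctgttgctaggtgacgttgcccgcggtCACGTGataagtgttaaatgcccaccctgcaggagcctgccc
Lhx6: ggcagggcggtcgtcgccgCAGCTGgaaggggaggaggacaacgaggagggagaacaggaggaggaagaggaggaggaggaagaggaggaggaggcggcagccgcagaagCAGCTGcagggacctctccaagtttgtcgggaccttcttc
Erbb4: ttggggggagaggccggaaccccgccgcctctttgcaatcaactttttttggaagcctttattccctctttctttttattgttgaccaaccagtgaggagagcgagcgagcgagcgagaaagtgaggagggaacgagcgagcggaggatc
The Dlx2 window held 2 copies of CACGTG, the Lhx6 window 2 copies of CAGCTG and the Erbb4 window none. The other 2 Lhx6 windows and that of Dlx1 held none either, and those of Gad1, Gad2 and 1 of the 2 of Dlx6os1 held 1 each. The homeodomain core TAATTA, which also reads the same on either strand, was found in 2 copies in the other Dlx6os1 window, in none of the windows printed and in 2.73% of all windows.

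Libraries differed in ways that bear on every value below. After removal of cells rich in haemoglobin, which took 40.4% of KO5, 13.9% of KO4 and 0.421 to 1.34% of WT2 to WT4, 118 to 6173 cells per library were kept, with a median of 2217 to 4359 UMIs per cell. Tcf4, read over all kept cells at the 3′ end, was at 12.2 to 12.6 UMIs per 10000 in WT2 to WT4, 9.29 in KO4 and 7.59 in KO5, but 7.20 in the library labelled WT5, 4.65 in that labelled WT1 and 16.7 in that labelled KO1, against their labels. WT5, the small WT1, KO1 and KO2 are therefore given apart from the comparison, as in the study. KO5 alone held UMIs of Y-linked genes, so sex was not balanced. Among the 5 libraries compared, at most 1.01% of the barcodes of the smaller library were shared with another, and 2.5% at most among all 9. Actb, a ubiquitous actin, stood in the 4 populations described next at 161 to 175 UMIs per 10000 in KO4 and KO5 and 188 to 197 in WT5, against 36.6 to 67.5 in WT2, WT3 and WT4, so WT5 stood with KO4 and KO5, and the part of this split in any result was not tested.

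Cells were assigned to populations by summed UMIs of markers that include none of the 9 genes. Ganglionic eminence progenitors were cycling cells with Sp8, Sp9, Gsx1, Gsx2 or Nkx2-1. The name stands for this gate, and few or none of its cells in KO4, KO5 and WT5 met a stricter gate given below. Interneuron-gated cells had markers such as Nxph1, Sst, Npy and Adarb2, and striatal-gated cells markers such as Ebf1, Isl1, Six3 and Rxrg. Glutamatergic cells had Neurod6, Neurod2, Slc17a6, Slc17a7 or Tbr1. The interneuron gate took 20, 18 and 498 cells in WT2, WT3 and WT4, 263 in KO4, 165 in KO5 and 265 in WT5. The striatal gate took 21, 26 and 480 cells, then 51, 19 and 39 in the same order, and the eminence gate 22, 31 and 291 cells, then 39, 26 and 38. WT2 and WT3 thus rest on few cells, and WT4 held most of the WT cells of each ventral population. Shares and levels from so few cells are imprecise, and fewer expressing cells and less RNA per cell cannot be told apart in a mean over gated cells.

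The Dlx genes were highest in ganglionic eminence progenitors of the WT libraries. Dlx1 stood there at 7.85, 6.63 and 4.36 UMIs per 10000 in WT2, WT3 and WT4, Dlx2 at 4.39, 4.88 and 5.02, and Dlx6os1 at 3.31, 5.34 and 4.33. Dlx5 was lower than these, at 1.43, 3.41 and 2.40. The means over the WT libraries were 34.8-fold (Dlx1), 43.5-fold (Dlx2), 27.2-fold (Dlx6os1) and 23.4-fold (Dlx5) those in glutamatergic cells, in which all 9 genes lay between 0.0384 and 0.326 UMIs per 10000. Of the 4 populations, interneuron-gated cells came next for Dlx1, Dlx2 and Dlx6os1, with Dlx1 at 1.60, 2.43 and 2.53, and the striatal gate followed, although Dlx2 was at 1.16 in both gates of WT2. For Dlx5 the order below the eminence differed, as the striatal gate held 1.41, 1.96 and 1.30 UMIs per 10000 and the interneuron gate 0.627, 1.08 and 1.71, ranges that overlap.

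**Figure D1:**
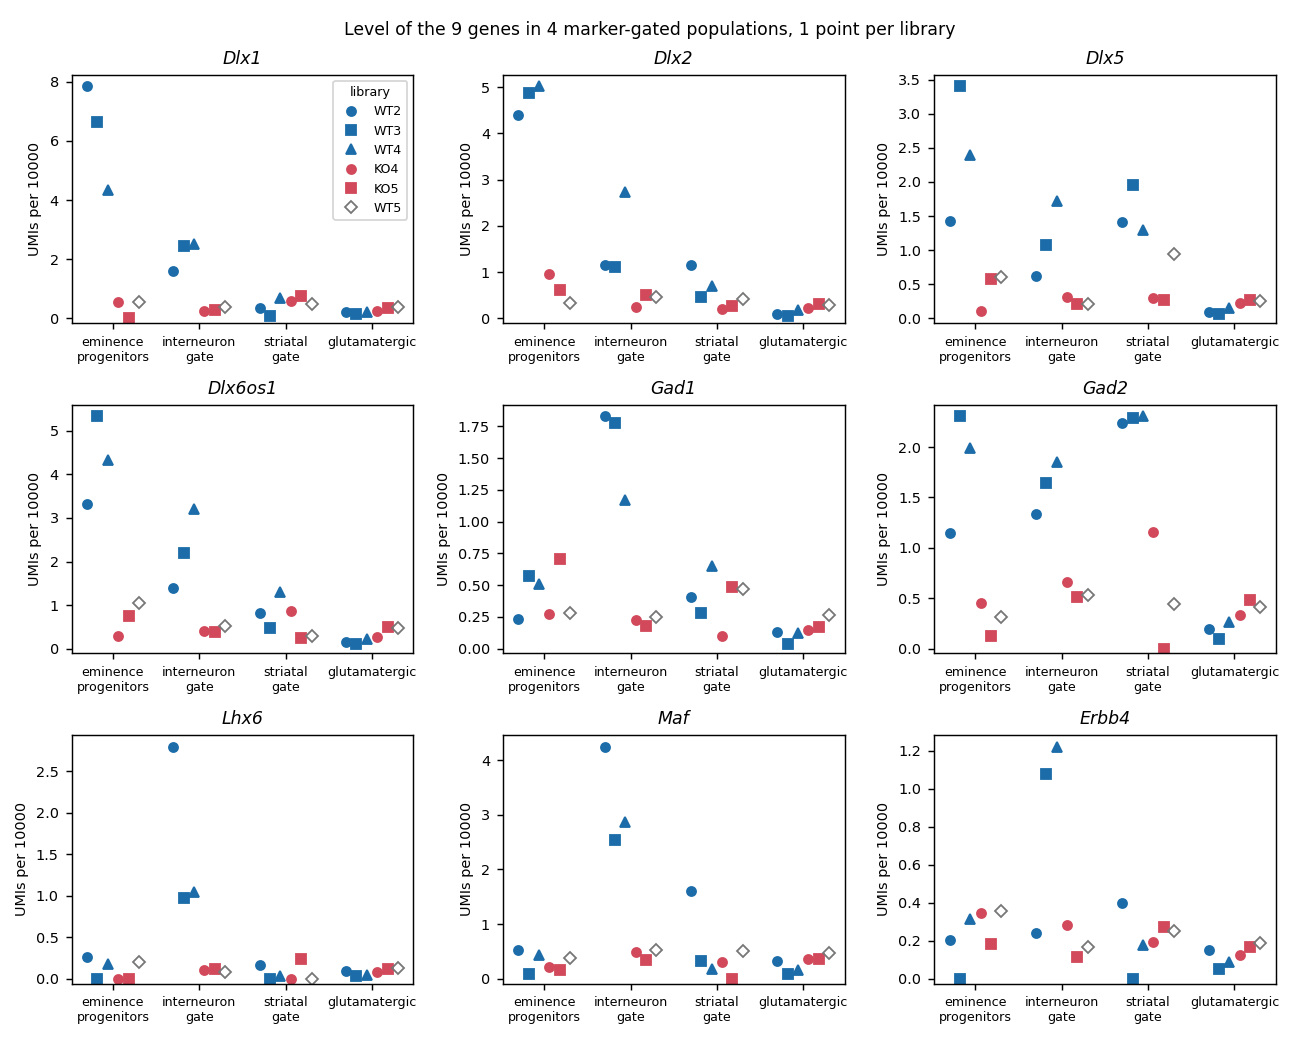
Level of each of the 9 genes, as mean UMIs per 10000 on the y axis, in 4 marker-gated populations on the x axis, with 1 point for each library (blue WT2, WT3 and WT4, red KO4 and KO5, open grey WT5). In WT2 to WT4 the Dlx genes peak in eminence progenitors and Lhx6, Maf and Gad1 in the interneuron gate, as Erbb4 does in WT3 and WT4 but not in WT2, where the striatal gate is higher, while no value of KO4, KO5 or WT5 exceeds 1.15 in any of the 4 populations.

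The GABA-synthesis genes divided between neurons. Gad1 was highest in the interneuron gate, at 1.83, 1.78 and 1.17 UMIs per 10000 in WT2 to WT4, and did not exceed 0.649 in the other 3 populations. Gad2 was on average highest in the striatal gate, at 2.24, 2.29 and 2.30. The eminence (1.14, 2.30 and 1.99) and the interneuron gate (1.34, 1.64 and 1.85) followed, with ranges that overlap. In WT3, Gad2 stood slightly higher in the eminence (2.30) than in the striatal gate (2.29).

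Lhx6, Maf and Erbb4 were on average highest in the interneuron gate. Lhx6 stood there at 2.80, 0.974 and 1.05 UMIs per 10000 and Maf at 4.25, 2.54 and 2.86. In the striatal gate Lhx6 did not exceed 0.166, and Maf was at 1.60 in WT2 but 0.327 and 0.178 in WT3 and WT4. Erbb4 was at 1.08 and 1.22 in WT3 and WT4, whereas WT2, with a single Erbb4 UMI in 20 cells, was at 0.239. Maf was not particular to neurons, as vascular and microglial cells held 1.63, 1.05 and 2.54 UMIs per 10000 in WT2 to WT4, ranges that overlap those of the interneuron gate.

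The share of cells with a Dlx1 UMI followed the same order. Dlx1 was detected in 81.8, 80.6 and 70.1% of eminence progenitors of WT2, WT3 and WT4 and in 30.0, 33.3 and 45.4% of interneuron-gated cells. In glutamatergic cells, which should lack the gene, the share was 4.21, 4.72 and 7.53%, at a median of 2492 to 4687 UMIs per cell against 2169 to 4542 in the eminence and 2212 to 3406 in the interneuron gate. With every cell thinned to 1800 UMIs, the shares became 72.7, 71.0 and 46.4% in the eminence, 25.0, 27.8 and 32.1% in the interneuron gate and 2.79 to 3.71% in glutamatergic cells. No kept cell was shallower than 1800 UMIs.

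Differences between populations were tested within libraries by limma-trend on log2(mean UMIs per 10000 + 1), which understates changes of low genes, with a gene called at an adjusted p under 0.05. Over WT2, WT3 and WT4 alone, a choice made after seeing the data, all 9 genes were higher in interneuron-gated than in glutamatergic cells, against 1.27% of genes called higher. The log2 differences ran from 0.71 for Erbb4 (SE 0.143, adjusted p = 7.64e-05) to 1.81 for Maf (SE 0.160, adjusted p = 2.69e-26). With KO4 and KO5 in the fit, as first designed, none of the 9 was called (0.0542% of genes called), although all 9 differences were positive with an unadjusted p under 0.05. DESeq2 called Dlx5 and Gad2 higher in that fit (0.238% of genes called higher), and edgeR none of the 9 (1.68%).

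Eminence progenitors were set against cycling progenitors of the cortex so that both sides were cycling cells. In WT2 to WT4, Dlx1 was higher in the eminence by 2.29 on the log2 scale (SE 0.137, adjusted p = 9.84e-17), Dlx2 by 2.21, Dlx6os1 by 1.99, Dlx5 by 1.48, Gad2 by 1.17 and Gad1 by 0.45, all called, against 2.07% of genes called higher. Lhx6, Maf and Erbb4 were not called. Over the 5 libraries Gad1 alone was called (0.39, adjusted p = 0.0348), at a background of 0.867% of genes, and this call was lost without WT2, WT3 or WT4 (0.34 to 0.42) and changed sign to -0.02 with cells thinned to 1800 UMIs.

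**Figure D2:**
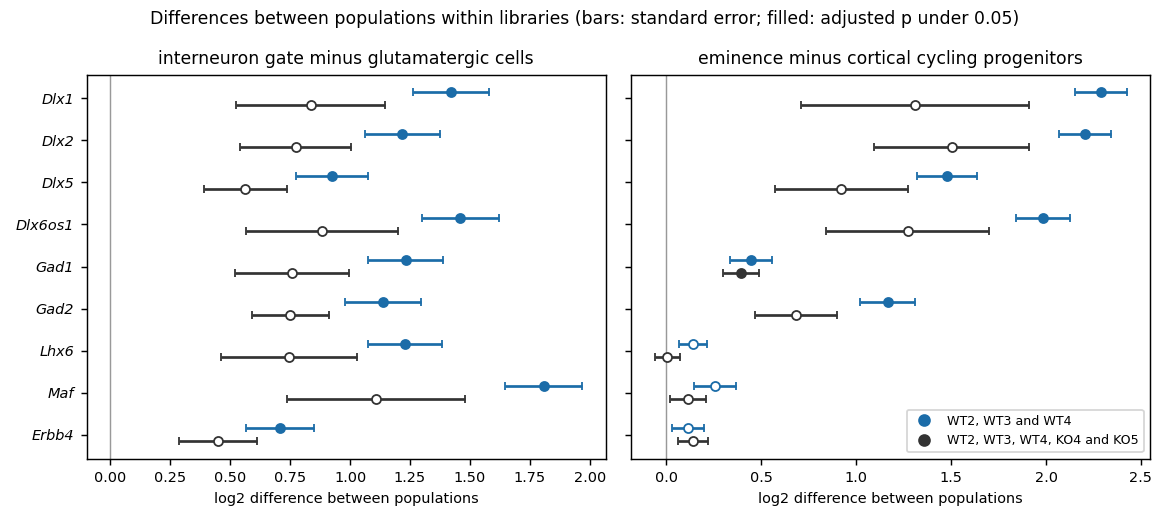
Differences between populations within libraries for the 9 genes, on the log2(mean UMIs per 10000 + 1) scale on the x axis, with standard errors as bars and filled points for an adjusted p under 0.05. Blue points (WT2, WT3 and WT4) are filled for all 9 genes on the left and for 6 on the right, while of the black points (5 libraries) only Gad1 on the right is filled.

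From eminence progenitors to interneuron-gated cells the genes changed places. In WT2 to WT4, Dlx1 (1.17), Dlx2 (1.16) and Dlx6os1 (0.72) were called higher in the progenitors, and Maf (-1.64), Lhx6 (-1.12) and Gad1 (-0.85) lower, on the log2 scale, against 3.9% of genes called in either direction. Over 5 libraries, 3 of these calls held, Dlx2 at 0.85 (SE 0.175, adjusted p = 0.0198), Lhx6 at -0.73 (SE 0.170, adjusted p = 0.0354) and Maf at -1.08 (SE 0.213, adjusted p = 0.0198), at a background of 1.16%. Without WT2, without WT3 or with haemoglobin-rich cells kept, none of these 3 stayed called. Between both kinds of GABAergic neurons, Maf was higher in the interneuron than in the striatal gate by 0.95 (SE 0.177, adjusted p = 0.00781, background 0.172%), and in WT2 to WT4 alone Dlx1 and Lhx6 (1.22 each) were called beside Maf (1.38), against 0.296% of genes. The Maf difference over 5 libraries lost its call without WT2, WT3, WT4 or KO5, with log2 values of 0.76 to 1.08.

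Within the interneuron gate, cells with more MGE than CGE (caudal ganglionic eminence) markers could be compared in libraries with at least 10 cells of each kind, WT4, KO4 and KO5. In WT4, MGE-marked cells held more Lhx6 (1.54 against 0.318 UMIs per 10000) and Maf (4.51 against 0.931), and fewer UMIs of Dlx1 (1.78 against 4.16) and Dlx6os1 (1.73 against 5.91). Over the 3 libraries Maf was called (0.74, SE 0.163, adjusted p = 0.00535, background 0.141%), and without WT4 it was at 0.36 and not called, nor was it with thinned cells or DESeq2. The other 8 genes were not called.

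In cells of the eminence gate, 5 of the 9 genes fell in KO libraries. Few of the KO cells met a stricter gate, with 2 or more eminence UMIs and no glutamatergic UMI beside the cycling markers, which held 3, 7 and 84 cells of WT2 to WT4, 1 of the 39 of KO4, 0 of the 26 of KO5 and 0 of WT5. That cell of KO4 had 1 UMI of Dlx1 and 2 of Dlx2, or 3.59 and 7.18 UMIs per 10000, and no test was possible under this gate. Dlx1 went from 7.85, 6.63 and 4.36 UMIs per 10000 in WT2, WT3 and WT4 to 0.550 in KO4 and 0 in KO5, where 0 of 26 cells held a UMI, which allows a share of up to 11.5% by counting error. The log2 difference was -2.52 (SE 0.251, adjusted p = 5.11e-16). Dlx2 was at 0.965 and 0.606 in KO4 and KO5 (-1.70, adjusted p = 3.74e-08), and Dlx6os1 at 0.301 and 0.753 (-1.80, adjusted p = 7.19e-09). Both stayed below every WT library. Dlx5 was at 0.108 and 0.575 (-1.33, adjusted p = 5.23e-05) and Gad2 at 0.449 and 0.122 (-1.12, adjusted p = 0.00102), again without overlap with WT. These are the 5 members without overlap, all lower, against 2.13% of 8976 genes called lower and 19.1% lower without overlap. Gad1 did not separate, with 0.237, 0.569 and 0.513 in WT and 0.271 and 0.702 in KO, and Lhx6, Maf and Erbb4 were low in both genotypes.

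The calls of the 4 Dlx transcripts in eminence-gated cells held without any single library of the 5. They also held with edgeR (1.76% of genes called lower), with DESeq2 (0.624%) and after thinning, and were lost with no filter on low values. Gad2 lost its call without KO5 (-0.93), with DESeq2 and after thinning. With the library labelled WT5 added none of the 5 was called. WT5 stood at 0.547 for Dlx1, 0.343 for Dlx2, 0.608 for Dlx5 and 1.04 for Dlx6os1, below every one of WT2 to WT4. The cells of this gate also differed in what defines them. Their 13 cycling markers summed to 86.6, 70.5 and 42.5 UMIs per 10000 in WT2 to WT4, 19.3 and 15.8 in KO4 and KO5 and 11.8 in WT5, with each of the 13 detected in all 6 libraries. Their 5 eminence markers summed to 5.03 to 6.02 in WT2 to WT4 and 5.01 and 5.40 in KO. Nkx2-1 was at 0 in WT3 and KO4 and Gsx1 at 0 in KO5 and WT5. The gate asks each cell for a UMI of these 5 markers, so the likeness of these sums is in part set by it and does not show that the cells are alike. Glutamatergic markers summed to 1.74 to 3.07 in WT and 5.19 and 5.97 in KO. The part of these differences in the fall of the Dlx genes was not tested.

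**Figure D3:**
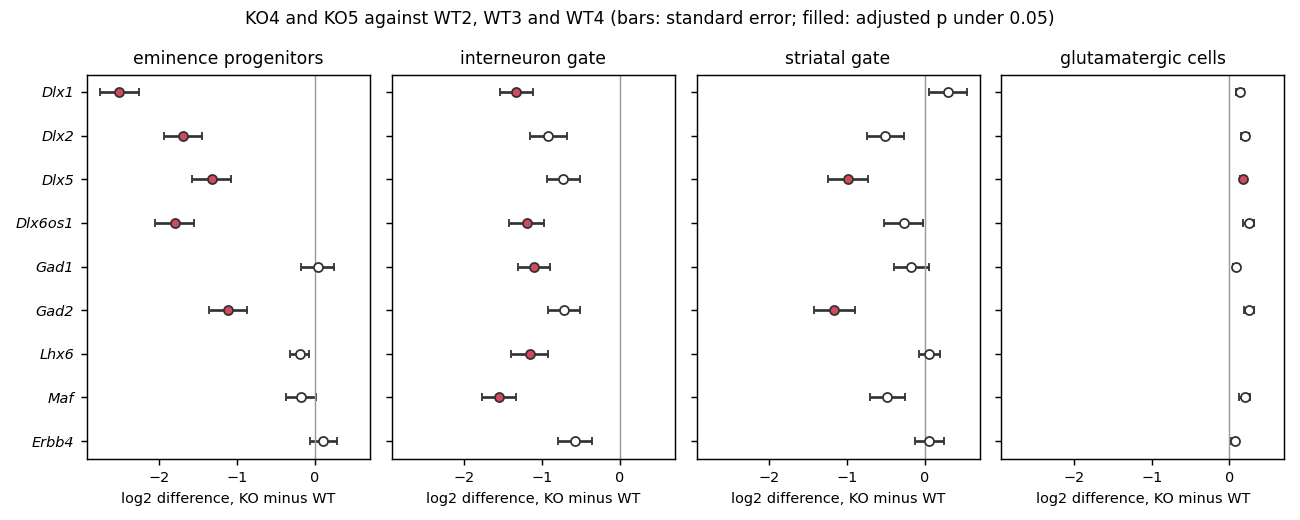
Difference of KO4 and KO5 from WT2, WT3 and WT4 for the 9 genes in 4 populations, on the log2(mean UMIs per 10000 + 1) scale on the x axis, with standard errors as bars and red points for an adjusted p under 0.05. Red points lie below 0 for 5 genes in the eminence gate, 5 in the interneuron gate and 2 in the striatal gate. A red point lies above 0 for Dlx5 in glutamatergic cells, where Lhx6 was too low to be tested.

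In interneuron-gated cells all 9 genes were lower on average in KO libraries, and 5 were called, against 0.464% of 8827 genes called and 0.125% called lower. Maf fell from 4.25, 2.54 and 2.86 UMIs per 10000 to 0.491 in KO4 and 0.348 in KO5 (log2 difference -1.55, SE 0.213, adjusted p = 0.000167). Dlx1 fell from 1.60, 2.43 and 2.53 to 0.241 and 0.275 (-1.33, SE 0.209, adjusted p = 0.000898). Dlx6os1 stood at 1.40, 2.20 and 3.21 in WT and 0.407 and 0.377 in KO (-1.19, adjusted p = 0.00667). The WT and KO libraries did not overlap for any of these 3.

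Lhx6, the MGE factor, went from 2.80, 0.974 and 1.05 to 0.112 and 0.118 (-1.16, adjusted p = 0.0182), and Gad1 from 1.83, 1.78 and 1.17 to 0.223 and 0.175 (-1.10, adjusted p = 0.00562). Of the 4 genes that did not pass, Dlx2, Dlx5 and Gad2 were also lower in both KO libraries than in every WT library, and Erbb4 overlapped through WT2 (0.239, against 0.283 in KO4 and 0.117 in KO5). In all, 8 of the 9 genes were lower without overlap, against 16.5% of all genes. DESeq2 called the same 5 genes, against 0.102% of genes called lower by it, and edgeR all 9, against 0.884%.

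The interneuron calls rested on WT4, the library with most of the WT cells. Without WT4 none of the 9 was called, while the differences stayed at -0.99 to -1.60 for the 5 genes (Dlx6os1 and Maf at these ends). With WT5 added no member was called either, at 0.378 for Dlx1, 0.524 for Dlx6os1, 0.251 for Gad1, 0.0873 for Lhx6 and 0.530 for Maf in WT5, all below WT2 to WT4. Without KO4 Maf alone stayed called, without KO5 Maf and Dlx1, and Dlx6os1 also lost its call without WT3 and after thinning.

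The share of interneuron-gated cells with a UMI lay near that of glutamatergic cells in KO4 and KO5. Dlx1 was detected in 4.94 and 6.67% of interneuron-gated cells of KO4 and KO5 and in 6.21 and 7.87% of glutamatergic cells, at medians of 2259 and 2177 UMIs per cell in the former and 2350 and 2231 in the latter. Maf was in 11.0 and 7.88% of interneuron-gated cells and 8.47 and 8.40% of glutamatergic cells, and Lhx6 in 3.42 and 3.03% against 1.95 and 3.07%. Dlx1 in both libraries, and Maf and Lhx6 in KO5, are thus at background and not read as expression. Gad2 was in 13.7% against 8.28% in KO4, and in 11.5% against 10.9% in KO5, where the shares after thinning were 6.06 and 8.67%, so in KO5 it too is at background. As means over KO4 and KO5, Dlx6os1 was at 0.392 UMIs per 10000 in the interneuron gate and 0.378 in glutamatergic cells. In the same order Dlx5 was at 0.269 and 0.249, Gad1 at 0.199 and 0.161, Erbb4 at 0.200 and 0.147 and Dlx2 at 0.371 and 0.270. These genes thus also lay little above the glutamatergic level. The 9 interneuron markers were all detected in the interneuron-gated cells. They summed to 15.9 UMIs per 10000 in KO4 and 13.5 in KO5, against 14.3 to 25.3 in WT2 to WT4. The gate itself selects cells by UMIs of these 9 markers, so the sums are in part set by it and do not show what the cells are. Glutamatergic markers in the gate summed to 3.87 to 4.50 in WT2 to WT4, 6.42 and 6.06 in KO4 and KO5 and 6.18 in WT5, and vascular and microglial markers to 0.195 to 0.440, then 1.28, 2.19 and 2.04. The part of these differences in the fall of the genes was not tested.

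The peptide markers Sst and Npy were spread over other cells of the same libraries. In glutamatergic cells Npy was at 0.712, 0.251 and 0.683 UMIs per 10000 in WT2 to WT4 and 2.27, 2.40 and 2.33 in KO4, KO5 and WT5, and Sst at 0.0648 to 0.256 and then 0.737, 0.906 and 1.06. When the interneuron gate was drawn without Sst and Npy, an alternative added after seeing the data, 7, 13 and 339 cells were left in WT2 to WT4 and 19, 9 and 15 in KO4, KO5 and WT5. In the 19 cells of KO4, Maf was at 0.911 UMIs per 10000 (5 UMIs) and Lhx6 at 0.157 (1 UMI), against 3.36 to 6.56 and 0.854 to 3.75 in WT2 to WT4. Among the 9 cells of KO5 both had 1 UMI. Dlx5, at 0.603 in KO4, and Erbb4, at 0.851, exceeded WT2 (0.427 and 0), and Dlx2 in KO4 was at 0.932 against 1.21 in WT2, so the lack of overlap of Dlx5 seen in the wider gate was lost. KO and WT could not be tested under this gate, which left a single KO library with 10 cells or more. The part of such spread peptide UMIs in the interneuron values was not tested.

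In striatal-gated cells, Gad2 and Dlx5 fell. Gad2 was at 2.24, 2.29 and 2.30 UMIs per 10000 in WT2, WT3 and WT4, 1.15 in KO4 and 0 in KO5, where no Gad2 UMI was found in 19 cells, which allows a share of up to 15.8%. The log2 difference was -1.16 (SE 0.259, adjusted p = 0.00224). Dlx5 went from 1.41, 1.96 and 1.30 to 0.294 and 0.275 (-0.98, SE 0.257, adjusted p = 0.0184). Of 8650 genes, 0.405% were called lower and 14.6% were lower without overlap, as Dlx2, Dlx5 and Gad2 were. Gad2 was not called without KO5 (-0.60) or without WT4 (-1.15), and Dlx5 lost its call without WT3, WT4, KO4 or KO5 while staying at -0.88 to -1.06. Neither gene was called by edgeR or DESeq2, or with WT5 added. Striatal markers summed to 16.9 to 25.8 UMIs per 10000 in WT and 13.0 and 11.0 in KO, and vascular and microglial markers to 0.0624 to 0.318 and then 1.43 and 2.02, a difference whose part in these results was not tested.

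Dlx1 was not called in the striatal gate, where it was at 0.355, 0.0963 and 0.674 in WT2 to WT4 and 0.601 and 0.744 in KO4 and KO5, ranges that overlap, on 1 to 126 UMIs per library. The effect of the genotype on Dlx1 differed between the interneuron and the striatal gate by -1.63 on the log2 scale (SE 0.307, adjusted p = 0.0178), against 0.0303% of genes called. Among the 9 genes, Maf was the one whose effect differed between interneuron-gated and eminence-gated cells, by -1.38 (SE 0.283, adjusted p = 0.0193), against 0.6%. Both calls were lost without KO4, without KO5, with DESeq2 and after thinning. The Dlx1 call was also lost without WT3 or WT4, and the Maf call with edgeR. Maf was already low in eminence-gated cells of WT2 to WT4, at a mean of 0.352, against 0.185 in KO4 and KO5. Dlx1 was low in striatal-gated cells of WT2 to WT4, at a mean of 0.375. On this log2 scale, genes so low in WT cannot fall there as far as they fell in the interneuron gate. The limma calls therefore do not tell a different effect of the genotype from a different WT level.

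In glutamatergic cells the levels of all 9 genes were low, and the order of the genotypes was turned. Dlx5 was called higher in KO, from 0.0945, 0.0660 and 0.149 UMIs per 10000 in WT2 to WT4 to 0.228 and 0.270 in KO4 and KO5 (0.18, SE 0.0394, adjusted p = 0.0428), against 2.09% of 8311 genes called higher. Of the 8 genes tested, 7 were higher without overlap, against 10.6% of genes, and Erbb4 overlapped. The same 7 were lower without overlap in the interneuron gate, a pairing found in 0.671% of the 8049 genes tested in both, and the difference of the effect was not tested. Gad2, for example, was at 0.196, 0.0974 and 0.263 in WT and 0.335 and 0.484 in KO, and WT5 was at 0.415. The Dlx5 call was lost without WT2, WT3, KO4 or KO5, and its difference was -0.02 with all 9 libraries as labelled. Interneuron markers in these cells summed to 0.516 to 1.42 in WT2 to WT4 and 3.67 and 4.15 in KO4 and KO5, and their part was not tested.

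UMIs of these genes were spread less evenly over cells in WT2 to WT4. For the 4 Dlx transcripts and both Gad genes, summed in cells thinned to 1800 UMIs, the variance of UMIs per cell over its mean stood at 2.81 (WT2), 3.60 (WT3) and 3.18 (WT4), against 1.22 and 1.04 in KO4 and KO5 and 1.04 in WT5, where a value of 1 is that of UMIs placed at random over cells. The difference of the means (3.20 ± 0.395, SD, n = 3, against 1.13 ± 0.128, n = 2) had an exact permutation p of 0.1, the smallest that 3 against 2 libraries allow. Cells with 3 or more of the 6 genes made up 3.29, 2.41 and 7.92% of WT2, WT3 and WT4, 0.643 and 0.347% of KO4 and KO5 and 0.441% of WT5 (exact permutation p = 0.2 for WT2 to WT4 against KO4 and KO5). The sum of these genes over all cells, 3.05 ± 1.41 UMIs per 10000 in WT and 1.97 ± 0.201 in KO, gave an exact permutation p of 0.5. This measure was chosen after seeing the data.

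**Figure D4:**
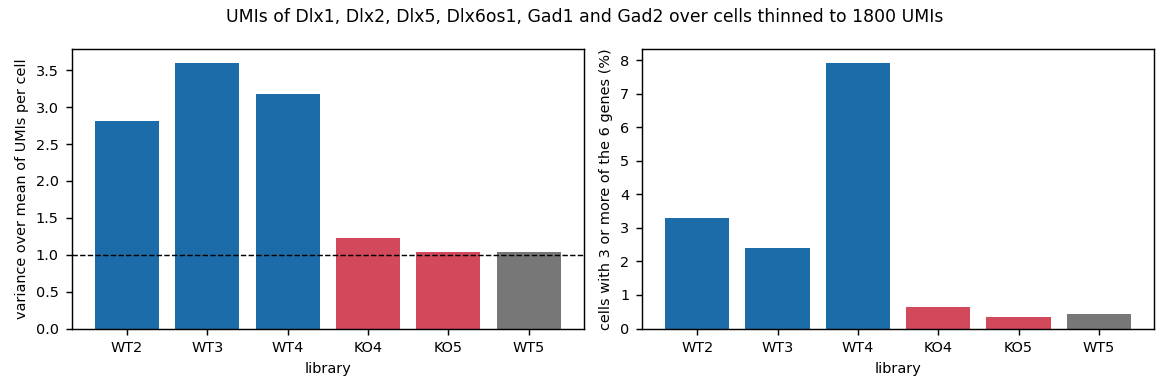
UMIs of Dlx1, Dlx2, Dlx5, Dlx6os1, Gad1 and Gad2 over cells thinned to 1800 UMIs, with 1 bar for each library on the x axis (blue WT, red KO, grey WT5). The left y axis gives the variance of UMIs per cell over the mean, with a dashed line at 1, and the right y axis the percent of cells with 3 or more of the 6 genes, and in both WT2, WT3 and WT4 stand above KO4, KO5 and WT5.

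Pairs of genes met in the same cells more often in WT2 to WT4. In thinned cells Dlx1 and Dlx2 were found together in 49, 46 and 292 cells of WT2, WT3 and WT4, 5.96, 8.50 and 3.62 times the product of their shares. In KO4 this ratio was 2.58 (31 cells), in KO5 0.740 (6 cells) and in WT5 0.704 (10 cells). Lhx6 and Maf met 6.43, 11.0 and 6.45 times as often as the product in WT2 to WT4, in 9, 3 and 56 cells, and 1.48, 1.28 and 1.50 times in KO4, KO5 and WT5, in 7, 3 and 10 cells. Dlx5 and Dlx6os1, the neighbours on chromosome 6, gave 4.44, 4.56 and 3.12 in WT and 1.08 and 1.12 in KO. The small libraries KO1 and KO2 held 4 and 2 cells with Dlx1 and Dlx2, 12.3 and 6.05 times the product. Such ratios rest on too few cells for a reading, as do those of Lhx6 and Maf in WT3 and KO5, on 3 cells each. The cells of a library share its depth and preparation, so these ratios are a description with no test.

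Where the UMIs of a gene were found shows the same spread. Eminence-gated cells held 19.1, 20.5 and 27.3% of all Dlx1 UMIs of WT2, WT3 and WT4 with 1.56, 1.76 and 4.79% of all UMIs. In KO4 and KO5 they held 1.67 and 0% of the Dlx1 UMIs with 0.835 and 1.01% of all UMIs. Interneuron-gated cells held 28.3, 19.4 and 49.5% of Lhx6 UMIs in WT with 1.43, 0.953 and 6.35% of all UMIs, and 8.18 and 8.20% in KO4 and KO5 with 5.89 and 6.99%. Glutamatergic cells held 11.7 to 14.0% of Dlx1 UMIs in WT and 28.8 to 28.9% in KO, with 48.9 to 61.6% and 32.5 to 39.4% of all UMIs. Over all kept cells Dlx1 was at 0.733 ± 0.145 UMIs per 10000 in WT (SD, n = 3) and 0.365 ± 0.0356 in KO (n = 2), exact permutation p = 0.1, and none of the other 8 genes came below 0.2 in this test, for which 3 against 2 libraries cannot go below 0.1.

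The shares of cells in the gates as first drawn gave no p below 0.3 between the genotypes. Striatal-gated and eminence-gated cells were nevertheless a smaller share in both KO libraries than in every one of WT2 to WT4. Interneuron-gated cells made up 3.62 ± 3.86% of kept cells in WT and 6.71 ± 0.637% in KO (exact permutation p = 0.4), a direction that turned with the gate drawn without Sst and Npy (-1.87 percentage points) and with stricter gates (-0.705). Striatal-gated cells made up 3.72 ± 3.51 and 1.02 ± 0.275% (exact permutation p = 0.5), and eminence-gated cells 2.83 ± 1.63 and 1.03 ± 0.142% (exact permutation p = 0.3, and 0.2 with thinned cells or stricter gates). WT4 held 8.07% interneuron-gated and 7.78% striatal-gated cells, against 1.11 to 1.77% in WT2 and WT3.

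A list of 27 other genes covered Dlx neighbours, GABA handling and interneuron migration, and was chosen with earlier results of these data known. In each population most of those tested were not called. In the interneuron gate 24 were tested, 0 rose and Nrxn3, a presynaptic adhesion molecule, fell by 1.54 on the log2 scale (SE 0.232, adjusted p = 0.000479), from 5.02, 2.55 and 5.53 UMIs per 10000 in WT2 to WT4 to 0.756 and 0.805 in KO4 and KO5. Over all genes 0.125% were called lower there. The median difference of the list was -0.04, beside -0.03 over all genes and -1.10 over the 9 genes. In eminence-gated cells 4 of 23 were called lower and none higher, against 2.13% of all genes called lower. Without overlap, 10 of the 23 were lower and 2 higher, against 19.1 and 14% of all genes. The median difference of the list was -0.13, beside -0.02 over all genes and -1.12 over the 9 genes. Among the 4 called, Nrxn3 fell by 1.60 and the transcription factors Meis2 and Etv1 by 0.97 and 0.82 on the log2 scale. Nrxn3 kept its call without each single library, and Etv1 and Meis2 lost theirs without KO4 or without KO5. Dlx6 was at 0.483, 0.462 and 0.568 in WT and 0.156 and 0 in KO, and was not called. In these 2 populations, 2 of the listed genes each were higher with an unadjusted p under 0.05.

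In the striatal gate 1 of 20 was called, Meis2, which fell by 0.91 (adjusted p = 0.00547) from 12.5, 16.7 and 16.9 UMIs per 10000 to 8.10 and 7.26, and 3 were higher with an unadjusted p under 0.05. Over all genes 0.405% were called lower in the striatal gate. In glutamatergic cells 4 of 19 were called, 2 higher and 2 lower in KO, against 2.09% of all genes called higher and 0.626% lower. Nrp1, a semaphorin receptor, fell by 1.04 and Meis2 by 0.72 on the log2 scale. Meis2 thus fell in 3 of the 4 populations, from 7.82, 11.2 and 10.2 to 5.63 and 5.29 UMIs per 10000 in glutamatergic cells. WT5 lay at 4.85 there and 7.83 in the striatal gate. With all 9 libraries as labelled the glutamatergic differences of Meis2 and Nrp1 were 0.21 and 0.06, and neither was called.

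Among the 9 genes, levels over 30 values (5 libraries and 6 populations) were alike within the Dlx genes and within a set around Lhx6. Dlx2 correlated with Dlx6os1 (Pearson r = 0.94) and Dlx1 (0.91), and Dlx5 with Gad2 (0.89), whereas Lhx6 correlated with Gad1 (0.80) and Maf (0.75) and with Dlx2 only at 0.30. The values share libraries and depth, so these are descriptions. Of 11987 other genes, those most like the Dlx set were Dleu7 for Dlx1 (0.88), Rnd3 for Dlx2 (0.91), Pou3f4 for Dlx5 (0.89) and Nrxn3 for Dlx6os1 (0.88), and Cdca7 was among the nearest 3 of both Dlx1 and Dlx2 (0.86 and 0.87). Carhsp1 was nearest to Gad2 (0.83) and second for Dlx5. Rpp25 was nearest to Gad1 (0.85) and second for Lhx6 (0.89) after Cacng3 (0.93), a regulator of AMPA receptors. Maf was most like Dgkg (0.75) and Erbb4 most like Neb (0.84).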

How the data were processed

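Each library holds the cells of 1 embryo (Chromium 3′ v2). The submitters' processing notes name Cell Ranger 2.1.0, Seurat 2.3.4 and R 3.6.0, and the build is GRCm38 (mm10). The authors deposited whole UMI counts for 4 libraries (WT4, WT5, KO4 and KO5). The other 5 were deposited as natural log values, ln(1 + UMIs per 10000), from which UMIs were recovered, all whole within 1e-06. Libraries held 348105 to 29767293 UMIs. Cells with 1000 to 5000 genes, 1800 to 10000 UMIs, under 6% mitochondrial and at most 1% haemoglobin UMIs were kept. No doublet caller was run, and an alternative left out the 5% of cells with the most UMIs. Limits given for a count of 0 cover counting error only.

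The embryo was the replicate. Means over gated cells (10 or more cells in a library) were fitted with limma-trend (limma 3.58.1, R 4.3.3, robust) on log2(mean UMIs per 10000 + 1), keeping genes that reached 0.1 in 2 libraries, with Benjamini-Hochberg adjustment over all genes tested. EdgeR 4.0.16 and DESeq2 1.42.0 on recovered UMIs, a pseudocount of 0.5, no filter, thinned cells, other gates and other sets of libraries were alternatives. For single values per library, exact permutation tests (2-sided) were used. The scripts were tested on simulated counts with 200 genes changed by 1 on the log2 scale. In the interneuron gate limma and DESeq2 recovered 0% of these genes and edgeR 4.5%. In glutamatergic cells limma recovered 24.5%, edgeR 27.5% and DESeq2 22.5%. A gene that was not called may therefore still have changed by such an amount. The 9 genes, the marker lists and the list of 27 related genes were chosen with earlier results of these data known. Genes named are the 9, those of the 27 that were called with up to 4 more, and the genes of highest correlation with each of the 9. The values of some listed genes are not reported here.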

Additional observations from a re-analysis of the deposited data

Results flagged for a closer look

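Among 51 groups of 4 or more libraries, 3 held a library far from the others by Dixon's test at the 95% level, about the number that chance gives at 1 in 20. Among the libraries labelled KO, the variance over mean of UMIs of the 4 Dlx and 2 Gad transcripts was highest in KO1, at 2.26, with the other 3 at 1.04 to 1.22. Gad2 over all kept cells was lowest in the same library, at 0.156 UMIs per 10000, with the others at 0.418 to 0.446. KO1 is the library labelled KO whose Tcf4 level (16.7 UMIs per 10000) goes against its label. Among the libraries labelled WT, Dlx6os1 over all kept cells was highest in WT4, at 1.04 UMIs per 10000, with the others at 0.416 to 0.568.

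The effect of the genotype differed between populations for 2 of the 9 genes by a test of the difference. Both genes were low in WT2 to WT4 in the population set against the interneuron gate. Means there were 0.375 for Dlx1 (striatal gate) and 0.352 for Maf (eminence gate). On the log2 scale used, neither could fall there as far as in the interneuron gate. The limma calls thus do not tell a different effect from a different WT level. For Dlx1 the effect differed between the interneuron and the striatal gate by -1.63 on the log2 scale (limma, adjusted p = 0.0178, with 0.0303% of all genes called). For Maf it differed between the interneuron and the eminence gate by -1.38 (limma, adjusted p = 0.0193, with 0.6% called). Both calls were lost without KO4, without KO5, with DESeq2 and after thinning. In a comparison that was not tested, 7 genes (Dlx1, Dlx2, Dlx5, Dlx6os1, Gad1, Gad2 and Maf) were lower in every KO than in every WT library in interneuron-gated cells and higher in every KO library in glutamatergic cells, as were 0.671% of the 8049 genes tested in both.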

How the results depend on the processing

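Both the numbers of called genes over the whole table and the calls of the 9 genes moved with the processing. Alternatives other than leaving out a single library are counted here, and some of them held fewer or other libraries than the main fit. Examples are WT2 to WT4 alone and the replicate block. Among all alternatives counted, 56 numbers of called genes moved by more than a factor of 1.5 and 50 did not. Of the log2 differences of the 9 genes, 428 kept their direction and side of the threshold, including differences never called. Another 101 were no longer called, 56 became called and 3 changed sign. Values below are genes called at an adjusted p under 0.05, by limma unless another tool is named. For KO against WT in the order interneuron gate, striatal gate, eminence progenitors and glutamatergic cells, 1, 0, 2 and 5 genes were called with no filter on low values, 0, 12, 0 and 0 with WT5 added and 0, 12, 0 and 0 with all libraries as labelled. The unadjusted p was under 0.05 for 193, 783 and 364 genes in the 3 sets at 0 with WT5 added, and for 107, 783 and 271 with all libraries, and for 441 in the striatal gate with no filter; no other tool was run on these sets. EdgeR called 309 in the interneuron gate, and DESeq2 16 in the striatal gate and 104 in the eminence gate.

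Between populations, no filter gave 0 (interneuron against glutamatergic, 1081 at an unadjusted p under 0.05), 0 (interneuron against striatal, 562), 0 (eminence against interneuron, 1097), 4 (eminence against cortical cycling) and 2 (MGE against CGE), and 0 for both tests of a difference in the genotype effect (851 and 1131). EdgeR called 320, 226, 746, 544 and 34 in the same order and 25 and 151 for the differences in effect. DESeq2 called 34 (interneuron against glutamatergic), 179 (eminence against interneuron), 7 (MGE against CGE) and 0 and 19 for the differences in effect. Stricter gates gave 17 for interneuron against glutamatergic. The gate without Sst and Npy gave 130, 67 and 78 for the first 3, and WT2 to WT4 alone 225, 27, 361 and 406 for the first 4, both chosen after seeing the data. With haemoglobin-rich cells kept, 37 (eminence against interneuron), 56 (eminence against cortical cycling), 8 (MGE against CGE) and 1 (effect in interneuron against striatal) were called, and with thinned cells 1 and 12 for the differences in effect.

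Leaving out each of the 5 libraries gave 0 to 48 (interneuron gate), 20 to 115 (striatal), 130 to 245 (eminence) and 50 to 1116 (glutamatergic) for KO against WT, the 0 and the 1116 without WT4 (1178 genes at an unadjusted p under 0.05 in the former). It gave 3 to 38, 11 to 36, 22 to 172, 33 to 147 and 3 to 25 between populations and 0 to 25 and 0 to 118 for the differences in effect. Where 1 library of a genotype was left, it was assumed to vary like the others.

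Replicate numbers are shared between WT and KO. Deviations of same-numbered libraries in glutamatergic cells correlated at -0.013 (1), 0.294 (2), 0.227 (4) and 0.536 (5). WT1 held 13 such cells and KO2 held 20. Each number has a single pair of libraries, so whether same-numbered libraries share a litter or a batch cannot be told from these values. A replicate block called 0, 9, 1 and 0 genes for KO against WT in the order above (328 and 354 at an unadjusted p under 0.05 for both zeros), and the same libraries without the block 0, 1, 0 and 0 (309, 256 and 110 for the zeros).

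Signs changed for Dlx5 between KO and WT in glutamatergic cells with all libraries (-0.022 on the log2 scale), Gad1 in eminence against cortical cycling progenitors with thinned cells (-0.019) and Lhx6 in the effect between interneuron gate and eminence with edgeR (3.10). Leaving out 1 library, Gad2 in the effect between interneuron and striatal gate ran from -0.040 (without KO5) to 0.93. The share of interneuron-gated cells turned with stricter gates (-0.705 percentage points), without Sst and Npy (-1.87) and with all libraries (-4.00). As KO minus WT in UMIs per 10000 without 1 library, Gad1 over all kept cells ran from -0.0693 to 0.0512 (without WT4), Gad2 over all kept cells from -0.139 to 0.126 (without WT4), Lhx6 over all kept cells from -0.0454 to 0.00982 (without WT4, and above 0 without WT2), Maf over all kept cells from -0.123 to 0.0575 (without WT4, and above 0 without WT2) and Erbb4 over all kept cells from -0.0248 (without WT3) to 0.0670. With all libraries, Maf was at 0.00410 and Erbb4 at -0.0528. The causes were not tested. Stricter gates could be fitted only for KO against WT in glutamatergic cells and for interneuron against glutamatergic cells, and the gate without Sst and Npy could not be fitted for KO against WT in the interneuron gate, MGE against CGE or the differences in effect, nor WT2 to WT4 alone for MGE against CGE, for lack of libraries with 10 cells.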
